A study of Homo sapiens with 4 samples.

Results

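The transcripts described here are those of 10 proteins that nilotinib is known to bind, not of every reported target. These are the tyrosine kinases ABL1, ABL2, DDR1, DDR2, KIT, PDGFRA, PDGFRB and CSF1R, the stress kinase MAP3K20 (formerly ZAK) and the quinone reductase NQO2. They were chosen by name, as known targets of the parent drug, and each of the 10 symbols matched 1 row of the 20263 genes in the count table. The cells were HCT116, an established human colon cancer line, grown for 24 h in medium with 10% serum and given either N_12 or the solvent DMSO, with 2 mRNA libraries per group. The series title calls N_12 a nilotinib derivative; its dose is not in the labels, and the treatment tag of the N_12 samples reads HJJ_3_5. The labels do not say that replicates were separate cultures, and the p-values therefore reflect how far these libraries differ from each other, possibly for technical reasons.

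Nilotinib was made against the ABL kinase of the BCR-ABL fusion of chronic myeloid leukaemia and holds kinases in an inactive shape of their active site. The same shape is open to it in the discoidin domain receptors DDR1 and DDR2, which bind collagen, and in the receptors KIT, PDGFRA, PDGFRB and CSF1R, which serve mast cells and pacemaker cells of the gut, fibroblasts and pericytes, and macrophages. MAP3K20 senses stalled ribosomes and passes the signal to the p38 and JNK kinases. NQO2 is no kinase: it reduces quinones with dihydronicotinamide riboside as electron donor, and it is known as an off-target of this drug class.

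HCT116 expressed 6 of the 10 genes, taking as expressed a level of at least 1 TPM (transcript level scaled by exon length and library depth) in all 4 libraries. These were ABL1, ABL2, DDR1, DDR2, MAP3K20 and NQO2, and 61.3% of all genes in the table met the same rule. CSF1R and PDGFRB gave low counts, PDGFRA gave 2 reads in 1 library, and KIT gave none. The expressed set thus held both ABL kinases, both collagen receptors, the stress kinase and the reductase, and none of the 4 growth factor receptors of the KIT and PDGF receptor class. A minimum of 5 TPM removed DDR2 alone.

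The annotated starts of these genes differ in base composition, and 3 stretches are shown for a member with transcripts (NQO2) and for 2 with few or none (KIT and CSF1R). They are RefSeq sequences of build GRCh38.p14, written 5′ to 3′ on the strand of the gene, from within the 250 bases before a start and without any base of an annotated exon. Capitals mark CpG dinucleotides, which are dense in promoters of widely expressed genes. The NQO2 stretch is chr6:2999644-2999875 (plus strand), the KIT stretch chr4:54657707-54657917 (plus strand) and the CSF1R stretch chr5:150113373-150113615 (minus strand).
NQO2: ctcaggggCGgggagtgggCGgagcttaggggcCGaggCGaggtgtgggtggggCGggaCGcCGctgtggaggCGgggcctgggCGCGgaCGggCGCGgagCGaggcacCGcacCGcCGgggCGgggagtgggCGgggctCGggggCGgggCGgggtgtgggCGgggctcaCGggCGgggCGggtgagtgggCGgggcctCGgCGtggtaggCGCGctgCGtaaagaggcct
KIT: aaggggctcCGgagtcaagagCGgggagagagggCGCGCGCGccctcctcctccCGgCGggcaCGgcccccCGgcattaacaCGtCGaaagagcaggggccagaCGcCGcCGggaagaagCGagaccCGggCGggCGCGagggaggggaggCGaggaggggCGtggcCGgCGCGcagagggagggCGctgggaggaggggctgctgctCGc
CSF1R: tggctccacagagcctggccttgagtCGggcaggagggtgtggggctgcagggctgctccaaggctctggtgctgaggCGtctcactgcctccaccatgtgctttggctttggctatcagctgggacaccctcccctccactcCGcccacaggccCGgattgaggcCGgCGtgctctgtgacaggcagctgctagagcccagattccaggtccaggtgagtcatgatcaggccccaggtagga

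The 3 stretches held 32, 27 and 6 CpG dinucleotides in 232, 211 and 243 bases. Over the whole windows of 250 bases, NQO2 had 36, a number reached by 4.85% of 35116 windows, and KIT had 34, reached by 6.84%, whereas the median window had 11. ABL1 had 33 and MAP3K20 had 24. At the other end the listed start of ABL2 had 1, the 3 starts of DDR2 had between 0 and 3, PDGFRB had 9, and the starts of CSF1R had 2 and 6. Those of PDGFRA had 8 and 25. The 8 starts of DDR1 ranged from 2 to 30. Among the listed starts, that of KIT, with 0 counts, had nearly as many as that of NQO2. The only listed start of ABL2, which was expressed, had 1. Whether CpG count goes with expression of the members was not tested. The letters GGGCGG, the core of the GC box, occurred 11 times in the NQO2 window on either strand, overlapping matches included, and at least once in 42.6% of all windows. The letters TATAAA were found, on either strand, in 2 of the 3 DDR2 windows and in no window of another member, against 10.7% of all windows. Which starts HCT116 uses was not examined.

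The 4 libraries held between 29769568 and 41717938 counts, and 14105 genes had enough to be tested. The cells carried epithelial transcripts: KRT19 stood at a mean of 2043 TPM, KRT8 at 775 TPM and KRT18 at 504 TPM, and of the intestinal markers CDX2 was expressed (13.9 TPM), VIL1 and LGR5 had at most 4 reads in a library and CDX1 had 0. No epithelial marker was called by edgeR (5 of 8 tested had an unadjusted p under 0.05); DESeq2 called 1 of them and limma-voom none. Summed over the epithelial list the level was 5180 and 4190 CPM in DMSO and 3500 and 4140 CPM in N_12. CPM are counts scaled by library depth with its TMM factor, and not by length. CLDN4 alone was at 458 and 24.3 CPM in DMSO and at 70.6 and 376 CPM in N_12. The sums thus carry its spread between replicates.

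**Figure D1:**
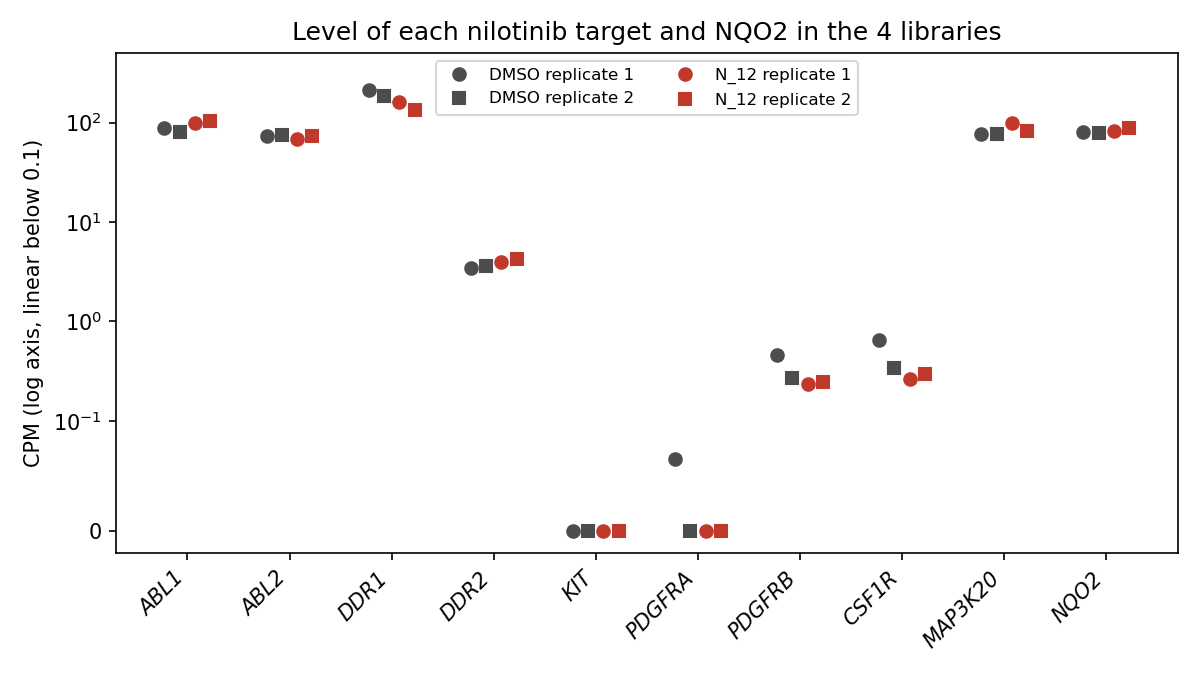
Level of the 10 genes in each library, in CPM on a log axis that is linear below 0.1, with circles for replicate 1 and squares for replicate 2, DMSO in grey and N_12 in red. ABL1, ABL2, DDR1, MAP3K20 and NQO2 sit between 68.5 and 212 CPM, DDR2 between 3.48 and 4.29 CPM, CSF1R and PDGFRB at 0.656 CPM or less, and PDGFRA and KIT at or near 0.

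ABL1 (ENSG00000097007, chromosome 9) and ABL2 (ENSG00000143322, chromosome 1) encode cytoplasmic kinases that link receptors to actin. ABL1 was at 87.9 and 79.5 CPM in DMSO and at 98.1 and 104 CPM in N_12. Both N_12 libraries were above both DMSO libraries, by a log2 fold change of 0.27 (SE 0.14, 95% interval -0.05 to 0.58, edgeR adjusted p = 0.297). ABL2 was at 73.8 and 74.5 CPM in DMSO and at 68.5 and 72.8 CPM in N_12. Here the N_12 libraries were the lower ones, by little, with a log2 fold change of -0.07 (SE 0.14, interval -0.39 to 0.25, edgeR adjusted p = 0.81). The ratio of ABL1 to ABL2 counts within a library, which needs no scaling, was 1.19 and 1.07 in DMSO and 1.43 and 1.42 in N_12. With 2 libraries against 2 an exact permutation test, two-sided, cannot give a p below 0.333, and it gave 0.333 for this ratio and for each of the 3 other pairs compared.

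DDR1 (ENSG00000204580, chromosome 6) is the collagen receptor of epithelial cells. It was at 212 and 186 CPM in DMSO and at 162 and 133 CPM in N_12. The N_12 libraries were lower and the groups did not overlap, with a mean of 199 ± 18.2 CPM against 147 ± 20.2 CPM (SD, n = 2). The log2 fold change was -0.43 (SE 0.15, interval -0.78 to -0.08), a level in N_12 0.741 times that in DMSO. DDR1 was the one member with an unadjusted p under 0.05 (edgeR, 0.0214), as had 21.8% of all tested genes, and it did not pass after adjustment over all of them (edgeR adjusted p = 0.159). Of the 8 tested epithelial markers, 6 also had fold changes below 0, with a list median of -0.34, and 2 above. The smallest p-values in that list belonged to the intestinal factor CDX2 (0.62), the tight junction gene CLDN7 (-0.48) and E-cadherin, CDH1 (-0.52), with edgeR adjusted p of 0.0926, 0.134 and 0.151. EPCAM, for example, was at 276 and 253 CPM in DMSO and at 216 and 181 CPM in N_12 (edgeR adjusted p = 0.152). The part of these markers in the DDR1 difference was not tested.

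DDR2 (ENSG00000162733, chromosome 1), the collagen receptor of mesenchymal cells, rested on far fewer reads, 106 and 107 counts in DMSO and 167 and 175 counts in N_12. On the CPM scale this was 3.48 and 3.64 in DMSO and 3.96 and 4.29 in N_12. The log2 fold change was 0.21 with a wide interval of -0.28 to 0.71 (SE 0.22, edgeR adjusted p = 0.601). DDR1 had 60.9 and 51.1 reads for each DDR2 read in DMSO, and 40.8 and 31.0 in N_12. DDR1 and DDR2 thus lay on opposite sides of 0, and the difference between their fold changes was tested by the exact permutation of this ratio alone (p = 0.333).

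Of the class of KIT and the PDGF receptors, KIT (ENSG00000157404, chromosome 4), the stem cell factor receptor, had 0 counts in all 4 libraries. With 3 reads taken by convention as the limit that a count of 0 allows, this is between 0.0719 and 0.101 CPM of the unscaled library totals. PDGFRA (ENSG00000134853, chromosome 4) had 2 reads in DMSO replicate 1 and 0 in the others; 15.8% of its exon bases are shared with the gene AC058822.1, which had a single read in N_12 replicate 2. PDGFRB (ENSG00000113721, chromosome 5) had 14 and 8 counts in DMSO and 10 and 10 in N_12, too few for the test. CSF1R (ENSG00000182578, chromosome 5) had 20 and 10 counts in DMSO and 11 and 12 in N_12. It passed the filter narrowly, and its log2 fold change of -0.84 had an interval from -2.15 to 0.47 (edgeR adjusted p = 0.422). The value rested on DMSO replicate 1, the highest library: without it the log2 fold change was -0.29, and without DMSO replicate 2 it was -1.23. The limit for a count of 0 covers counting error only.

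Transcripts that would come with other cells were looked for beside these receptors. In a bulk sample, fewer cells of a type and less RNA per cell cannot be told apart. Of 14 fibroblast and pericyte markers, PDGFRA and PDGFRB among them, 7 were near or at 0, including DCN, LUM, COL1A2 and POSTN with no read at all. The surface proteoglycan gene CSPG4 (46.2 TPM), the type I collagen gene COL1A1 (19.9 TPM) and MCAM (19.6 TPM) were expressed. So were ACTA2 (13.1 TPM) and the pericyte gene RGS5 (1.67 TPM). The 12 markers apart from PDGFRA and PDGFRB summed to 239 and 221 CPM in DMSO and to 224 and 269 CPM in N_12. Of 11 macrophage markers 6 had no read, among them CD163, PTPRC, AIF1 and TYROBP; the 10 apart from CSF1R summed to 42.1 and 35.1 CPM in DMSO and to 49.3 and 42.6 CPM in N_12, nearly all of it from the lysosomal gene CD68 (41.2, 34.7, 48.2 and 41.7 CPM). The next highest per length were the Fc receptor subunit FCER1G (1.49 TPM) and CD14 (0.476 TPM). The mast cell genes TPSAB1, CPA3 and MS4A2 had no read, and the histamine enzyme HDC was at 0.0338 TPM. In the list of mast cells and interstitial cells of Cajal, the chloride channel gene ANO1, which many carcinomas express, rose from 76.0 and 67.4 CPM to 117 and 118 CPM (log2 fold change 0.71, SE 0.14, edgeR adjusted p = 0.0452). ETV1 was expressed as well (18.1 TPM), while KIT was at 0. No endothelial marker reached 1 TPM, the highest being VWF at 0.32 TPM, KDR at 0.236 TPM and CLDN5 at 0.136 TPM, and the list summed to 1.67 and 1.84 CPM in DMSO and to 1.04 and 2.67 CPM in N_12. In the fibroblast, macrophage and endothelial lists edgeR, DESeq2 and limma-voom called 0 genes each, and none had an unadjusted p under 0.05 by edgeR.

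**Figure D2:**
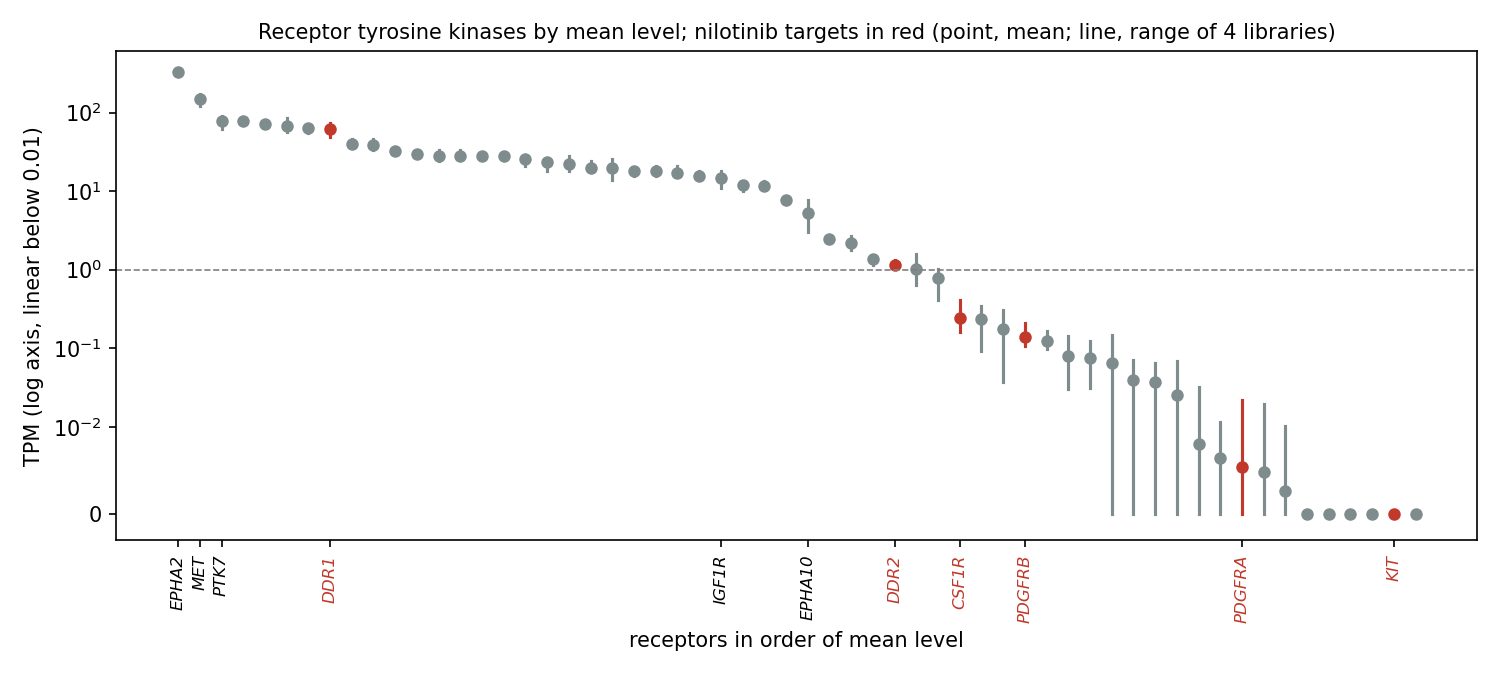
The 58 receptor tyrosine kinases ordered by mean level in TPM, on a log axis that is linear below 0.01. Lines give the range over the 4 libraries, and the nilotinib targets are in red. Names are given for these targets and for EPHA2, MET, PTK7, IGF1R and EPHA10. DDR1 ranks 8 at 61.5 TPM, DDR2 lies just above the dashed line at 1 TPM, and CSF1R, PDGFRB, PDGFRA and KIT lie below it.

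Among all 58 receptor tyrosine kinases, 34 were expressed by the same rule. By exon length EPHA2 (326 TPM), MET (150 TPM) and PTK7 (78.9 TPM) were the highest, with EGFR close behind (77.2 TPM). DDR1 ranked 8 and DDR2 ranked 34, the last of the expressed ones, followed by CSF1R at 37, PDGFRB at 40, PDGFRA at 50 and KIT at 53, the rank of the 6 receptors without a read. None of the 39 tested was called by edgeR (9 had an unadjusted p under 0.05); DESeq2 called 1 and limma-voom none. The smallest p-value belonged to IGF1R, the insulin-like growth factor receptor (log2 fold change -0.60, SE 0.15, edgeR adjusted p = 0.0764), and EPHA10, an ephrin receptor, had a log2 fold change of 0.75 (SE 0.25, edgeR adjusted p = 0.147).

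Ligands were present where receptors were not. KITLG, the stem cell factor that binds KIT, was at 127 and 159 CPM in DMSO and at 111 and 111 CPM in N_12. PDGFA was at 46.1 and 35.5 CPM in DMSO and at 26.1 and 29.1 CPM in N_12, and PDGFB, the second of the PDGF chains, at 49.5 and 41.6 CPM and at 42.1 and 44.4 CPM. CSF1, the macrophage growth factor, was low, at 5.77 and 6.19 CPM in DMSO and 8.45 and 8.07 CPM in N_12. KITLG and PDGFA were lower in both N_12 libraries and CSF1 higher, with log2 fold changes of -0.36, -0.57 and 0.47. None of the 5 tested ligands was called by edgeR (3 had an unadjusted p under 0.05, the adjusted p of PDGFA being 0.135), nor by DESeq2 or limma-voom. PDGFD had no read and IL34, the other CSF1R ligand, was near 0.

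Of 18 genes of collagen chains, 8 were expressed. The type VI chains COL6A1 (191 TPM) and COL6A2 (162 TPM) were highest, and COL1A1 followed at 19.9 TPM without its partner chain COL1A2, which had no read. Of 9 tested chains, edgeR, DESeq2 and limma-voom called 0; 1 had an unadjusted p under 0.05 by edgeR, the basement membrane chain COL4A3 (log2 fold change -0.39, SE 0.15). COL6A1 was at 298 and 282 CPM in DMSO and at 330 and 345 CPM in N_12 (log2 fold change 0.22, SE 0.12), and COL6A2 overlapped between the groups. The third type VI chain, COL6A3, was at 0.132 TPM (log2 fold change 0.40, SE 0.40).

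**Figure D3:**
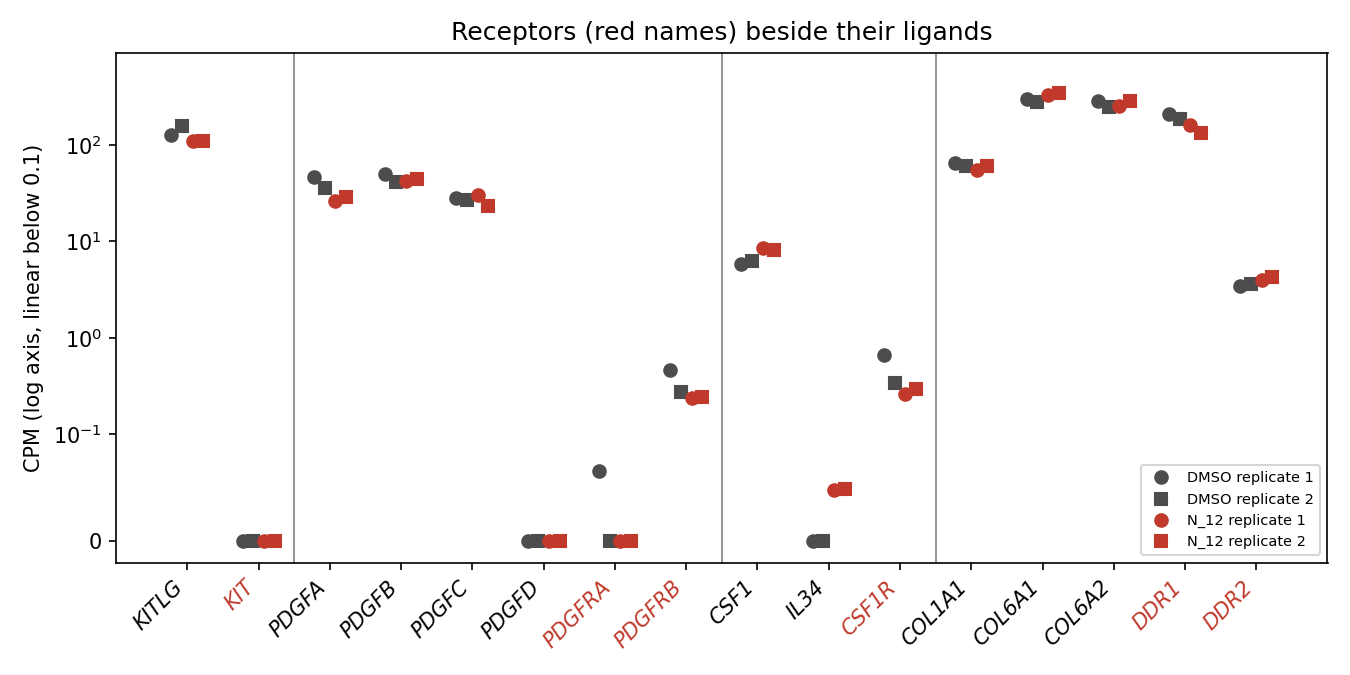
Ligands (black names) beside their receptors (red names) in CPM on a log axis that is linear below 0.1, with each point a library, DMSO in grey and N_12 in red. KITLG lies at 111 to 159 CPM beside KIT at 0, and COL6A1 and COL6A2 lie between 249 and 345 CPM beside DDR1 at 133 to 212 CPM.

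MAP3K20 (ENSG00000091436, chromosome 2) was at 77.5 and 76.4 CPM in DMSO and at 99.1 and 81.7 CPM in N_12. The N_12 libraries were higher but far apart from each other, and the log2 fold change was 0.23 (SE 0.15, interval -0.11 to 0.58, edgeR adjusted p = 0.401). Leaving out N_12 replicate 1 moved the log2 fold change to 0.07 and leaving out N_12 replicate 2 to 0.36. The table gives 1 value per gene, so the long and short protein forms of MAP3K20 could not be told apart, and 3.09% of its exon bases lie opposite its antisense gene. Of 18 genes of the MAP3 kinase family 17 were expressed, and edgeR, DESeq2 and limma-voom called none of the 17 tested (4 with an unadjusted p under 0.05 by edgeR). MAP3K15 had the smallest p, at 4.59 and 4.35 CPM in DMSO and 2.54 and 2.43 CPM in N_12 (-0.85, SE 0.22, edgeR adjusted p = 0.0917). MAP3K6 (0.50, SE 0.17) and MAP3K5, the redox-sensitive kinase ASK1 (0.38, SE 0.15), came next, with both N_12 libraries above both DMSO libraries.

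Among 21 tested genes of ribosome sensing and of the p38 and JNK relays, 1 was called, lower, as were 1.43% of all tested genes. This was JUN, the transcription factor that JNK phosphorylates, which fell from 162 and 137 CPM to 84.0 and 90.0 CPM (log2 fold change -0.78, SE 0.14, edgeR adjusted p = 0.0393). The MAP2 kinase MAP2K3, which activates p38, was at 160 and 127 CPM in DMSO and 110 and 87.4 CPM in N_12 without passing (-0.54, SE 0.17, edgeR adjusted p = 0.138). ASCC3, a helicase that takes collided ribosomes apart, had a log2 fold change of 0.48 (SE 0.17). The list median was 0.06, against 0.009 for all tested genes.

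NQO2 (ENSG00000124588, chromosome 6) was at 80.3 and 79.3 CPM in DMSO and at 82.5 and 88.1 CPM in N_12, a log2 fold change of 0.10 (SE 0.13, interval -0.21 to 0.41, edgeR adjusted p = 0.718). The interval left room for a level in N_12 between 0.862 and 1.33 times that in DMSO. Of its exon bases 5.46% lie opposite a pseudogene, and 2.53% are shared with the gene LINC01011 on the same strand. The strand setting of the counting is not given in the sources used here.

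NQO1, the paralog that uses NADH or NADPH and a known target of the antioxidant factor NRF2, rose from 399 and 368 CPM to 604 and 621 CPM (log2 fold change 0.67, SE 0.12, edgeR adjusted p = 0.0394). For each NQO2 read there were 4.97 and 4.64 NQO1 reads in DMSO and 7.32 and 7.05 in N_12. The exact permutation p of 0.333 is the lowest possible with these libraries. Among 17 tested quinone and carbonyl reductases 2 were called higher, as were 0.822% of all tested genes, and none lower. The second was the thioredoxin reductase TXNRD1 (1.02, SE 0.13, edgeR adjusted p = 0.0126), and AKR1B1, an aldose reductase, stood lower without passing (-0.61, SE 0.15, edgeR adjusted p = 0.0827). The list median was 0.02, with 9 fold changes above 0 and 8 below. Of the 17, 10 had an unadjusted p under 0.05 by edgeR, against 21.8% of all tested genes. Of 13 tested genes that make or move nicotinamide riboside and NAD, edgeR called 0 (5 with an unadjusted p under 0.05), DESeq2 2 and limma-voom 0; NT5E, an ectoenzyme that frees nucleosides, was at 199 and 264 CPM in DMSO and at 418 and 347 CPM in N_12 (0.72, SE 0.17, edgeR adjusted p = 0.0768). NMNAT3, which makes NAD in mitochondria, was lower in both N_12 libraries (-0.77, SE 0.20) and the nucleoside transporter SLC29A2 higher (0.64, SE 0.18), with edgeR adjusted p of 0.0872 and 0.101.

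**Figure D4:**
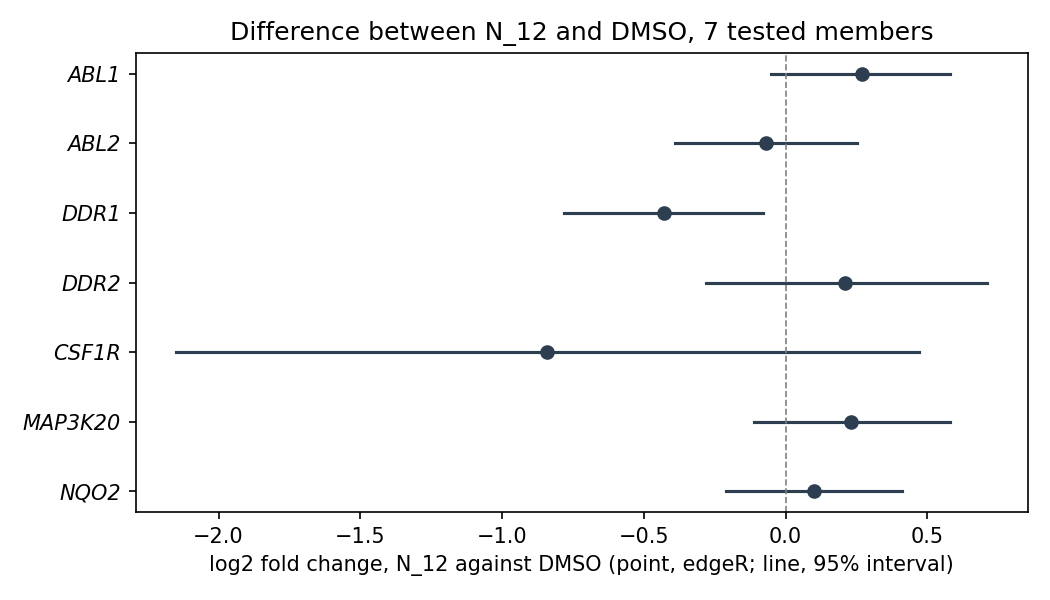
Log2 fold change of N_12 against DMSO for the 7 tested members (points, edgeR) with 95% intervals (lines), the dashed line marking no difference. The interval of DDR1 (-0.78 to -0.08) lies below 0 and the other 6 include it, that of CSF1R being the widest.

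Of all these genes, 0 of the 7 tested members passed edgeR's test at an adjusted p of 0.05, where 2.25% of all tested genes did. DESeq2, which called 8.68% of all tested genes, limma-voom, which called 0.929%, and edgeR with a replicate term, which called 6.83%, also called 0 of them. The CPM ranges of the groups did not overlap for 7 of 7, which was so for 54.7% of all tested genes. In 4 the N_12 libraries were the higher ones (ABL1, DDR2, MAP3K20 and NQO2) and in 3 the lower ones (ABL2, DDR1 and CSF1R). The raw counts of CSF1R did overlap, with 20 and 10 in DMSO and 11 and 12 in N_12. For ABL2 the nearest libraries were at 73.8 CPM (DMSO) and 72.8 CPM (N_12). Not passing does not show that the levels were the same. The intervals of ABL1, ABL2, MAP3K20 and NQO2 nevertheless bound the difference, with the highest upper limit at 1.5 times the DMSO level (ABL1) and the lowest lower limit at 0.765 times (ABL2).

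Levels of different genes were compared per exon length. DDR1 had the highest mean, 61.5 TPM (49.0 to 74.6 over the libraries), and ABL1 followed with 47.8 TPM (40.5 to 55.4). By this length alone the pair was apart in DMSO, at 69.9 ± 6.58 and 42.8 ± 3.13 TPM (SD, n = 2). It was level in N_12, at 53.0 ± 5.66 and 52.8 ± 3.62 TPM. NQO2 (22.0 to 25.6 TPM) and MAP3K20 (17.7 to 23.1 TPM) overlapped, as did MAP3K20 and ABL2 (16.6 to 18.4 TPM). DDR2 came next at 1.04 to 1.34 TPM, and CSF1R (0.163 to 0.409 TPM) and PDGFRB (0.107 to 0.207 TPM) overlapped. By mean TPM, DDR1, ABL1, NQO2, MAP3K20, ABL2 and DDR2 stood at percentiles 88.8, 85.3, 71.5, 68.1, 66.0 and 37.2 of all genes with a length.

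This order depended on which length was used. The exons of NQO2 cover 11558 bases when those of all its transcripts are joined, but the median coding transcript has 1059.5 bases, and with that length, tried after seeing the data, NQO2 was the highest member, at 127 to 155 TPM. DDR1 then came at 65.2 to 93.3 TPM, MAP3K20 at 41.1 to 57.6 TPM, ABL2 at 36.7 to 40.3 TPM and ABL1 at 28.3 to 40.2 TPM, the last pair overlapping. By that length DDR1 and ABL1 were not level in N_12, at 78.0 and 65.2 TPM against 37.5 and 40.2 TPM. DDR1 moved from rank 8 to rank 5 of the receptor tyrosine kinases, of which EPHA2 stayed first and EGFR passed MET (137 against 124 TPM), and MAP3K20 from rank 11 to rank 3 of the MAP3 kinases. NQO2 went from rank 8 to rank 3 of the 18 reductases, with NQO1 first under both lengths. The same 6 members were expressed with either length.

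Of 30 genes of ABL partners and substrates 27 were tested, and 2 were called, both lower, as were 1.43% of all tested genes. CRKL, the adaptor whose phosphorylation serves as a readout of BCR-ABL activity, fell from 426 and 375 CPM to 224 and 230 CPM (log2 fold change -0.82, SE 0.13, edgeR adjusted p = 0.0249). BRK1, a subunit of the actin-regulating WAVE complex, fell from 138 and 136 CPM to 80.0 and 81.8 CPM (-0.76, SE 0.13, edgeR adjusted p = 0.0296). Cortactin, CTTN, an actin-binding ABL substrate, was at 114 and 111 CPM in DMSO and 146 and 165 CPM in N_12 (0.47, SE 0.13, edgeR adjusted p = 0.109). BCR itself overlapped between the groups (75.7 and 66.0 CPM in DMSO, 60.7 and 68.3 CPM in N_12). The list median was -0.07.

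Other genes around the receptors were not called by edgeR. Of 23 adaptors and relays, GAB1, a docking protein of receptor kinases, had the smallest p (log2 fold change 0.91, SE 0.21, edgeR adjusted p = 0.0718) with 5.94 and 4.86 CPM in DMSO against 9.07 and 11.2 CPM in N_12, followed by SOS2 (0.58) and STAT3 (-0.47); 5 had an unadjusted p under 0.05, and DESeq2 called 3. Of 24 tested cytoplasmic tyrosine kinases 4 had an unadjusted p under 0.05 and DESeq2 called 1; SRC had the smallest p, at 54.3 and 51.0 CPM in DMSO and 70.8 and 76.8 CPM in N_12 (0.49, SE 0.14, edgeR adjusted p = 0.115), followed by TNK1 (0.52) and PTK6 (-0.56), an epithelial kinase. Of 9 STAT5 output genes, SOCS3 (-0.65, SE 0.16) and PIM1 (-0.54, SE 0.15) had an unadjusted p under 0.05, and DESeq2 called 2; PIM2 came next (-0.32, SE 0.15). Of 8 tested genes of nilotinib transport and metabolism 2 had an unadjusted p under 0.05 and DESeq2 called 0; the efflux pump ABCG2 was at 1.93 and 1.94 CPM in DMSO and 2.87 and 3.04 CPM in N_12. The efflux pump ABCC2 (0.36, SE 0.15) and the uptake carrier SLCO1B3 (-0.50, SE 0.23) were the next by p, and CYP3A4, the main enzyme of nilotinib clearance, reached at most 0.19 CPM. Limma-voom called none of the genes in these 4 lists.

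The calls of the 6 called genes of these lists did not all hold when a library was left out. Each such fit had 1 library in a group and thus less power, and the part of this in the lost calls was not tested. Without N_12 replicate 1, or without N_12 replicate 2, edgeR called no gene at all, although CRKL (-0.82 and -0.84) and NQO1 (0.68 and 0.65) kept their values. Without DMSO replicate 1 the calls of CRKL (adjusted p = 0.0842), JUN (0.167), BRK1 (0.0935), NQO1 (0.0876) and ANO1 (0.0905) ended by edgeR. Without DMSO replicate 2 those of BRK1 (0.0552), NQO1 (0.109) and ANO1 (0.132) ended. Limma-voom called TXNRD1 alone among the 6.

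The genes whose profile over the 4 libraries was most like that of DDR1, the member with the smallest p, were SAMD5, SERTAD2 and SMIM19, at Euclidean distances of 0.0333, 0.045 and 0.0454 between centred log2 CPM values. SERTAD2 was at 349 and 315 CPM in DMSO and at 263 and 223 CPM in N_12, and SAMD5 at 28.6 and 24.4 CPM and at 21.0 and 17.5 CPM. Over only 4 libraries, 53 of 11230 genes lay within 0.1 of DDR1.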

How the data were processed

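The labels describe mRNA libraries made from 1.4 ug of total RNA each. The authors deposited raw counts, 1 whole number per gene and library, under human Ensembl identifiers. The aligner was not given in the sources used here, nor were the counter and strand setting. GRCm38 and mm10, mouse builds, are listed in the submitters' processing notes although the identifiers are human. Groups and replicate numbers came from the sample titles.

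In R 4.3.3, edgeR 4.0.16 scaled the libraries by TMM (factors 0.98 to 1.023), kept genes by its expression filter and fitted a robust quasi-likelihood model of N_12 against DMSO; p-values were two-sided and Benjamini-Hochberg adjusted over all 14105 tested genes, with a threshold of 0.05. Standard errors were derived from each fold change with its F value. CPM used TMM-scaled totals. TPM used the joined exon length of GENCODE release 29, known for 20224 genes, and, as an alternative chosen after seeing the data, the median coding transcript length. DESeq2 1.42.0 and limma-voom (limma 3.58.1), other scalings and filters, a replicate term and leaving out each library were alternatives. The procedure was tested on simulated data. The outcome of that test is not reported here.

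Within each group the libraries were distinct: the chi-square statistic divided by its degrees of freedom was 37.5 (DMSO) and 59.6 (N_12). The members and 17 gene lists were chosen with earlier results of these data known. Besides the members and NQO1, genes named were those called in a list, the 3 of smallest p, and the 3 of highest level for ligands, markers and receptor tyrosine kinases, with the 3 profiles nearest to the member of smallest p among genes of at least 5 CPM (pseudocount 0.5 CPM). A gene that the rule names among the receptor tyrosine kinases is not reported here. Other genes named as values, such as BCR, CYP3A4, IL34 and the markers at 0, were chosen after their values were seen.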

Additional observations from a re-analysis of the deposited data

How the results depend on the processing

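None of the 7 tested members was called under any of the 12 alternatives, nor did any change sign; CSF1R was left out by the filter of at least 1 CPM in all libraries. Their log2 fold changes ranged from 0.20 to 0.34 for ABL1, -0.12 to -0.02 for ABL2, -0.60 to -0.30 for DDR1 (adjusted p from 0.0918 to 0.573), 0.15 to 0.26 for DDR2, -1.23 to -0.29 for CSF1R, 0.07 to 0.36 for MAP3K20 and 0.04 to 0.14 for NQO2. The count of genes called over the table, 317, was 1225 with DESeq2, 131 with limma-voom and 131 with a non-robust fit. The 6 called genes of the lists became 19, 1 and 1 under these. Leaving out a library gave between 0 and 451 called genes and between 0 and 6 list genes. The cause was not tested. Among named genes that were not called, RGS5 changed sign without DMSO replicate 2 (0.05) and VWF without N_12 replicate 2 (-0.54), their values ranging from -0.58 to 0.05 and from -0.54 to 0.99 as each library was left out. Reads set the limit for KIT, PDGFRA, PDGFRB and CSF1R.

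Over all tested genes, replicate numbers did not pair the samples: deviations of same-numbered libraries correlated at -0.0895. This correlation cannot decide whether single genes follow the replicate number. FER, picked out after its values were seen, was at 13.2 and 112 CPM in DMSO and at 15.0 and 84.0 CPM in N_12. CLDN4 went opposite ways in the groups. A replicate block gave 963 called genes, 12 of them in the lists, and 0 members.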

Other observations

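MAP2K4, the kinase that passes signals of MAP3 kinases to JNK, differed more between the DMSO libraries (16.5 and 52.2 CPM) than between the groups (24.6 and 22.6 CPM in N_12), and its log2 fold change of -0.54 had an interval from -2.60 to 1.52. CRK, the sister gene of CRKL, was at 138 and 90.0 CPM in DMSO and at 103 and 88.6 CPM in N_12, with overlapping groups, beside the fall of CRKL. Both genes were picked out after their values were seen.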
